A study of Arabidopsis thaliana with 27 samples.

Results

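The genes described here are 57 cytosolic ribosomal protein genes of *Arabidopsis thaliana*, of 34218 genes in the table of normalized counts. They were chosen by locus identifier, with no use of measured values: 37 encode proteins of the large ribosomal subunit and 20 proteins of the small subunit, in 29 protein families, 20 of which are represented by 2 or more paralogs. The *RPS6* genes, whose product is phosphorylated in the TOR pathway, were left out of the 57 and are given as a comparison. All 57 had a mean of at least 10 normalized counts in at least 1 group and were tested, and none was at 0 in any sample; values ran between 0.976 and 7312 normalized counts.

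RNA-seq was performed on leaves of *GC::AtTOR*, *35S::AtTOR* and wildtype (WT, Col-0) plants. The 27 samples fall into 9 combinations of genotype and treatment with 3 samples in each. *GC::AtTOR* plants carry the full-length *AtTOR* under a guard cell promoter from tobacco, located upstream of a RAP2.4-like gene, and *35S::AtTOR* plants carry it under the cauliflower mosaic virus 35S promoter; the native gene is present in both. Well-watered (WW) soil was held at about 60% of its full water capacity, drought leaves came from plants left without water for 11 days between 27 and 38 days after germination (DAG), and re-watered leaves from plants given water again for 4 days. Several homozygous lines were made per construct and the labels do not say which line gave a sample, nor at what age well-watered leaves were taken, so treatment and leaf age cannot be told apart. All samples carry the same batch label. Whole leaves were used, so fewer cells of a type and less RNA per cell cannot be told apart, and the labels do not say whether the 3 samples of a group came from separate plants, so that p-values measure the spread between these samples.

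Ribosomal proteins assemble with ribosomal RNA in the nucleolus, and the small and large subunits meet in the cytosol to translate mRNA. In plants each protein is encoded by a small family of paralogs, and their mRNAs make up a large share of the transcripts of growing cells. TOR, a protein kinase that couples nutrients and energy to growth, promotes ribosome production and the translation of ribosomal protein mRNAs, and drought generally slows leaf growth. Many plant ribosomal protein promoters hold a telo box (AAACCCTA) and site II elements (TGGGCC or TGGGCT), which are bound by TCP transcription factors.

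These elements were frequent in the 57 promoters. The sequences were taken from RefSeq (TAIR10.1), 250 bases before to 50 bases after each annotated gene start, and all 57 members matched. AAACCCTA was found on either strand in 29 of them (50.9%), against 6.22% of all 27437 promoters, and TGGGCC or TGGGCT in 44 (77.2%), against 21.7%; 36.8% of the members and 2.21% of all promoters held both kinds of string. TGGGCC alone was in 66.7% of the members and 15.5% of all promoters, and TGGGCT in 61.4% and 14.2%. When only the bases before the start were searched, AAACCCTA was in 12 members (21.1%, against 4.49% of all promoters), TGGGCC or TGGGCT in 38 (66.7%, against 19.2%) and both kinds in 7 (12.3%, against 1.36%). A match is a string of letters and not a shown binding site. The promoters of 2 paralog pairs are shown because their members changed in different or opposite ways in these leaves: *RPL3A* and *RPL3B*, which encode L3, and AT5G15200 and AT5G39850, which encode S9. The *RPL3A* window is chr1:16266303-16266602 (plus strand), that of *RPL3B* chr1:22723103-22723402 (minus strand), that of AT5G15200 chr5:4936380-4936679 (minus strand) and that of AT5G39850 chr5:15949660-15949959 (plus strand). They are written 5′ to 3′ along the gene, and capitals mark AAACCCTA, TGGGCC and TGGGCT or their reverse complements.
RPL3A: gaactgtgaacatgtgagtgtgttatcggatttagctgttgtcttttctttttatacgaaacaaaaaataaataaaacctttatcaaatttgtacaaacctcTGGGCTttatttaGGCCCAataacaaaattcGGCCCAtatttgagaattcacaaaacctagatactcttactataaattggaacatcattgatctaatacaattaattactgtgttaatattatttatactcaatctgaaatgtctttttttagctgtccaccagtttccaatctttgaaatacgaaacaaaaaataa
RPL3B: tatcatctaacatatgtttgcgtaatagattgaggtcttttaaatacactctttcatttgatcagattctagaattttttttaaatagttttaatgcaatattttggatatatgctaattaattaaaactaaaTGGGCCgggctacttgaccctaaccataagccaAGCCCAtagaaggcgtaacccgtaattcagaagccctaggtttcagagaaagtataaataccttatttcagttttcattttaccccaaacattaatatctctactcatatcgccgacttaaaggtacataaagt
AT5G15200: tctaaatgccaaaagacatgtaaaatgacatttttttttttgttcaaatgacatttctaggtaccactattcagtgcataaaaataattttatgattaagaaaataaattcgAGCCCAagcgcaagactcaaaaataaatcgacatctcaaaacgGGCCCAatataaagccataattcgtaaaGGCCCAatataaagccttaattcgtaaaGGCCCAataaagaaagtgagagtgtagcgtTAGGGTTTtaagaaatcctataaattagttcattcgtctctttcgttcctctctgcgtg
AT5G39850: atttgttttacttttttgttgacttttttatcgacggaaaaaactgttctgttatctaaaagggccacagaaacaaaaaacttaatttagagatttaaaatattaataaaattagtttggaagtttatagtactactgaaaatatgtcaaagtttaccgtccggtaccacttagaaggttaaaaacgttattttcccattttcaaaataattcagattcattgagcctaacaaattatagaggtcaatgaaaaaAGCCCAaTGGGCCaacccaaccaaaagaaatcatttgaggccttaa
*RPL3A* had its matches at -148, -135 and -117 from the gene start and *RPL3B* at -117 and -84, none of them a telo box. AT5G15200 held 4 site II matches, at -138, -95, -67 and -39, and AAACCCTA at -9. AT5G39850, the low paralog, had no match before the start and an adjacent pair of site II strings at positions 5 and 12 after it. Members with AAACCCTA had a median drought response of 0.60 in *GC::AtTOR*, 0.44 in *35S::AtTOR* and 0.49 in WT on the log2 scale, and members without it 0.65, 0.44 and 0.47 in the same genotypes, values that lie close to each other.

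*TOR* was measured as the check of the labels. Its mRNA had 8353 to 14667 normalized counts in the 9 *35S::AtTOR* samples, against 1126 to 1362 in the 9 WT samples, and was higher by 3.33, 3.40 and 3.33 on the log2 scale in well-watered, drought and re-watered leaves. In the 9 *GC::AtTOR* samples it had 1060 to 1315 normalized counts, and the log2 differences from WT of -0.01, 0.07 and -0.04 did not pass the test. No added *TOR* mRNA was thus detected in whole *GC::AtTOR* leaves. The recovered number of reads ran between 2739872 and 16707106 in 26 samples, lowest in *35S::AtTOR* re-watered replicate 1, where 1 read was worth 4.13 normalized counts. A library stood apart for these genes. *GC::AtTOR* well-watered replicate 3 had a summed level of 106458 normalized counts over the 57 members, against 74734 and 74634 in replicates 1 and 2. The well-watered WT samples, with 82158 to 96683, lay between these. Over all genes, the chi-square per degree of freedom between recovered reads was 35.2 and 30.2 for replicate 3 with replicates 1 and 2. It was 2.15 between replicates 1 and 2, the lowest of the pairs compared within groups. Values without replicate 3 thus rest on 2 samples close to each other and are not taken as sounder. The counts over all 57 members that rest on *GC::AtTOR* well-watered replicate 3 are given with and without it. The shares of all genes beside the counts are those of the fit to all samples.

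Levels differed widely within families. Per kilobase of coding sequence in well-watered WT leaves, the S8 gene AT5G20290 had 5210 ± 490 normalized counts, *RPL10A* 5063 ± 445 and the S9 gene AT5G15200 5018 ± 569 (SD, n = 3), and these 3 highest levels did not differ beyond their spread. The lowest were the paralogs of the same families: AT5G59240 (S8) with 5.80 ± 3.29, *RPL10B* with 115 ± 31.6 and AT5G39850 (S9) with 150 ± 38.0 normalized counts per coding kilobase. The 36 paralog pairs shared 79.32% to 99.15% of their coding bases (median 87.18%), with identical runs of at most 458 bases. The L9 pair AT1G33120 and *PGY2* (99.15%) and the L11 pair *RPL16A* and AT3G58700 had identical runs of over 100 bases, so that the split of reads between the paralogs of these 2 pairs is uncertain.

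The first comparison asked how the genes respond to drought in each genotype. Most of the 57 were higher in drought leaves than in well-watered leaves. Their summed level was 133594 ± 4392 normalized counts in drought *GC::AtTOR* leaves, against 85276 ± 18345 in well-watered ones, 113380 ± 10171 against 81588 ± 5502 in *35S::AtTOR*, and 130478 ± 9795 against 89356 ± 7264 in WT (SD, n = 3 each). As a share of all normalized counts this was 1.16% against 0.612% in *GC::AtTOR*, 0.919% against 0.622% in *35S::AtTOR* and 1.11% against 0.629% in WT.

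**Figure D1:**
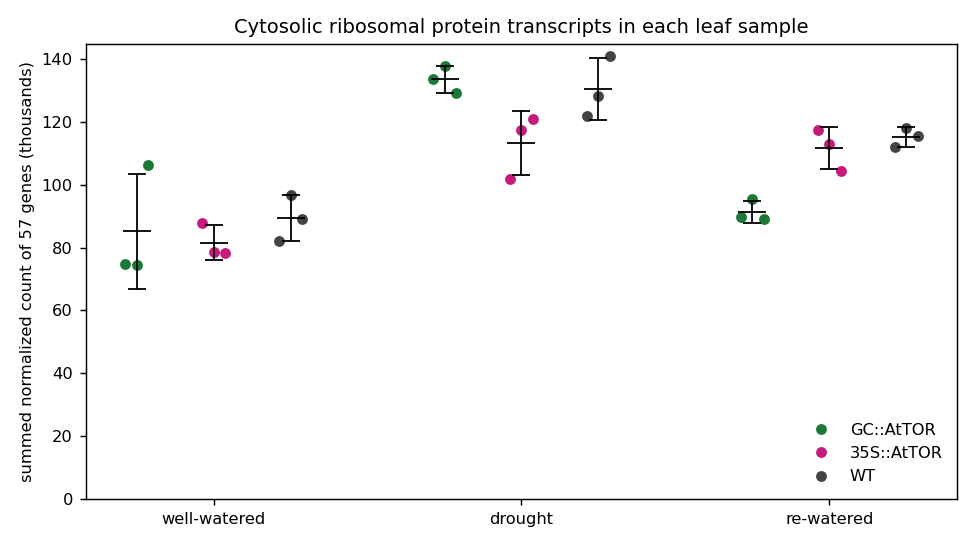
Summed normalized counts of the 57 ribosomal protein genes in each of the 27 samples (points) with the mean and SD of each group (line and error bar), by genotype and water treatment. All drought samples lie above the well-watered samples of their genotype, and after re-watering the *GC::AtTOR* samples (89197 to 95490) lie below all WT samples (112078 to 118197).

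By limma's moderated test with Benjamini-Hochberg adjustment over 18785 genes (adjusted p under 0.05), 53 of the 57 were higher and 2 lower under drought in *GC::AtTOR*, where 27.2% of all genes were higher and 31.4% lower. In *35S::AtTOR* 51 were higher and 1 lower, against 11.8% and 14.7% of all genes, and in WT 49 were higher and 1 lower, against 23.9% and 27.9%. The median log2 fold change of the members was 0.63 in *GC::AtTOR*, 0.44 in *35S::AtTOR* and 0.49 in WT, while that of all genes was -0.03, -0.01 and -0.03. Changes were small: only 4, 1 and 2 members were more than 2-fold higher in *GC::AtTOR*, *35S::AtTOR* and WT, against 8.02%, 2.32% and 7.61% of all genes. Both subunits were represented, with 34 of 37 large-subunit and 19 of 20 small-subunit genes called higher for *GC::AtTOR*, 33 and 18 for *35S::AtTOR*, and 32 and 17 for WT. Without *GC::AtTOR* well-watered replicate 3, the library that stood apart, the counts in that line were 54 higher and 1 lower, with a median of 0.81. The count in *35S::AtTOR* was 32 higher and 1 lower without drought replicate 3. The normalization matters for the size of these changes. When all samples were scaled to equal totals, the median of all genes shifted to 0.24, 0.07 and 0.24, and the members' medians became 0.90, 0.53 and 0.76. All-gene calls in WT became 7563 higher and 3293 lower in place of 4486 and 5245. This scaling raised the values of all genes under drought in each genotype, so it cannot test the direction of the members' rise.

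Of the 57 members 47 were higher under drought in each of *GC::AtTOR*, *35S::AtTOR* and WT, as were 8.57% of all genes tested, and the count was also 47 without the library that stood apart. *RPL10B*, *RPL3B* and AT5G59240 were higher in none of them. *RPL10C*, a further paralog of L10, was higher in *35S::AtTOR* (0.39, adjusted p = 0.0174) and did not pass in *GC::AtTOR* (0.25, adjusted p = 0.0672; without the library that stood apart 0.40, adjusted p = 0.00421) or WT (0.21, adjusted p = 0.139). Markers of other features of the leaf moved at the same time. The sum of 5 mesophyll genes (*RBCS1A*, *CAB1*, *LHCB2.1*, *RCA* and *PSBO1*) was 139487 to 302084 normalized counts in drought *GC::AtTOR* leaves, against 524702 to 543905 in well-watered ones, 288348 to 365019 against 335998 to 420764 in *35S::AtTOR*, and 219988 to 261240 against 567309 to 645765 in WT. All 5 were lower under drought in *GC::AtTOR* and WT and none in *35S::AtTOR*. Of 8 genes of dividing cells 6, 5 and 5 were lower and none higher in *GC::AtTOR*, *35S::AtTOR* and WT, where 31.4%, 14.7% and 27.9% of all genes were lower. The part of these shifts in the values of the ribosomal protein genes was not tested.

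The S9 gene AT5G39850 had the largest rise under drought in all 3 genotypes. S9 is a small-subunit protein that binds ribosomal RNA early in assembly. AT5G39850 had 390, 356 and 451 normalized counts in drought *GC::AtTOR* leaves, against 87.8, 74.2 and 96.4 in well-watered ones. It had 240, 240 and 259 in drought *35S::AtTOR* leaves, against 112, 123 and 130, and 309, 332 and 440 in drought WT leaves, against 95.8, 64.2 and 108. The samples of the treatments did not overlap in any genotype, and the log2 fold change was 2.20 ± 0.194 (SE, adjusted p = 1.08e-08) in *GC::AtTOR*, 1.02 (adjusted p = 0.000824) in *35S::AtTOR* and 2.02 (adjusted p = 5.08e-08) in WT. The response in *35S::AtTOR* differed from that of WT by -1 on the log2 scale (adjusted p = 0.0314), a call that was lost in 6 alternatives. Its abundant paralog AT5G15200 had 4973, 5657 and 5717 normalized counts in drought *GC::AtTOR* leaves, against 2315, 2216 and 3617 in well-watered ones, a log2 fold change of 1.04 (adjusted p = 3.99e-06; 1.26 without well-watered replicate 3), and rose by 0.72 in *35S::AtTOR* (adjusted p = 0.00128) and 0.66 in WT (adjusted p = 0.000744).

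In *GC::AtTOR* and WT the L7a gene AT3G62870 had the next largest rise. L7a and L18 are large-subunit proteins. AT3G62870 had 5352, 5745 and 4893 normalized counts in drought *GC::AtTOR* leaves, against 2058, 2082 and 2951 in well-watered ones, and 4945, 5178 and 6083 in drought WT leaves, against 2376, 2578 and 2522. In *35S::AtTOR* it had 4007, 4425 and 4625 under drought, against 2739, 2571 and 2582. The groups were apart in each genotype, with log2 fold changes of 1.19 (SE 0.114, adjusted p = 3.22e-08), 0.72 (adjusted p = 0.000158) and 1.11 (adjusted p = 1.22e-07) in *GC::AtTOR*, *35S::AtTOR* and WT. *RPL18* rose by 1.05 (adjusted p = 9.35e-07), 0.67 (adjusted p = 0.000977) and 0.94 (adjusted p = 5.14e-06) in the same genotypes. Without the library that stood apart the *GC::AtTOR* values of AT3G62870 and *RPL18* were 1.36 and 1.22. *RPSaA*, which encodes the Sa protein of the small subunit, rose by 0.88, 0.52 and 0.87 (adjusted p = 1.32e-06, 0.00212 and 1.95e-06). In *35S::AtTOR* the L11 gene *RPL16A* came between AT5G39850 and AT3G62870, with 0.74 (SE 0.174, adjusted p = 0.00377). The smallest rises that passed were mostly lost under some alternatives. In *GC::AtTOR* the L10a gene AT1G08360 had 0.29 (SE 0.105, adjusted p = 0.0221, lost in 5 alternatives). In *35S::AtTOR* the L6 gene AT1G74060 had 0.30 (SE 0.0907, adjusted p = 0.0201, lost in 4 alternatives) and the L12 gene AT3G53430 0.33 (SE 0.118, adjusted p = 0.0435, lost in 8). In WT AT1G74060 had 0.22 (SE 0.0907, adjusted p = 0.0473, lost in 7 alternatives) and its paralog AT1G74050 0.30 (SE 0.0892, adjusted p = 0.00827, lost in 1).

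*RPL3B* moved the other way. L3 lies near the peptidyl transferase centre of the large subunit. *RPL3B* had 114, 121 and 101 normalized counts in drought *GC::AtTOR* leaves, against 183, 174 and 237 in well-watered ones. It had 159, 146 and 151 in drought *35S::AtTOR* leaves, against 234, 224 and 216, and 132, 119 and 130 in drought WT leaves, against 221, 311 and 237. No drought sample reached the lowest well-watered sample of its genotype. It was the only member called lower in all 3 genotypes, with log2 fold changes of -0.81 (SE 0.136, adjusted p = 3.73e-05) in *GC::AtTOR*, -0.56 (adjusted p = 0.00492) in *35S::AtTOR* and -0.99 (adjusted p = 4.36e-06) in WT. With equal sample totals these were -0.53, -0.47 and -0.72. The *GC::AtTOR* value was -0.67 (adjusted p = 0.000431) when the library that stood apart was left out. *RPL3A* rose in the same leaves: it had 6433, 6440 and 5951 normalized counts in drought *GC::AtTOR* leaves, against 3335, 3186 and 4753 in well-watered ones (log2 fold change 0.76, adjusted p = 2.98e-05, and 0.94 without well-watered replicate 3), with 0.37 in *35S::AtTOR* (adjusted p = 0.0325) and 0.70 in WT (adjusted p = 0.000102). *RPL3B* thus made up 1.75%, 2.78% and 1.96% of the L3 family's counts in drought *GC::AtTOR*, *35S::AtTOR* and WT leaves, against 5.04%, 5.17% and 6.08% in well-watered ones. The only other family with paralogs called in opposite directions under drought was S8 in *GC::AtTOR*, where AT5G20290 rose by 0.45 (adjusted p = 0.0119) and AT5G59240, with 4.69, 4.90 and 2.92 normalized counts in drought leaves against 6.75, 12 and 14.2 in well-watered ones, had a log2 fold change of -1.18 (adjusted p = 0.0491), a call at few reads that was lost in 11 alternatives, among them the fit without well-watered replicate 3 (-0.98, adjusted p = 0.149). Well-watered *GC::AtTOR* leaves were among the few groups where AT5G59240 reached the mean of 10 needed for a test.

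**Figure D2:**
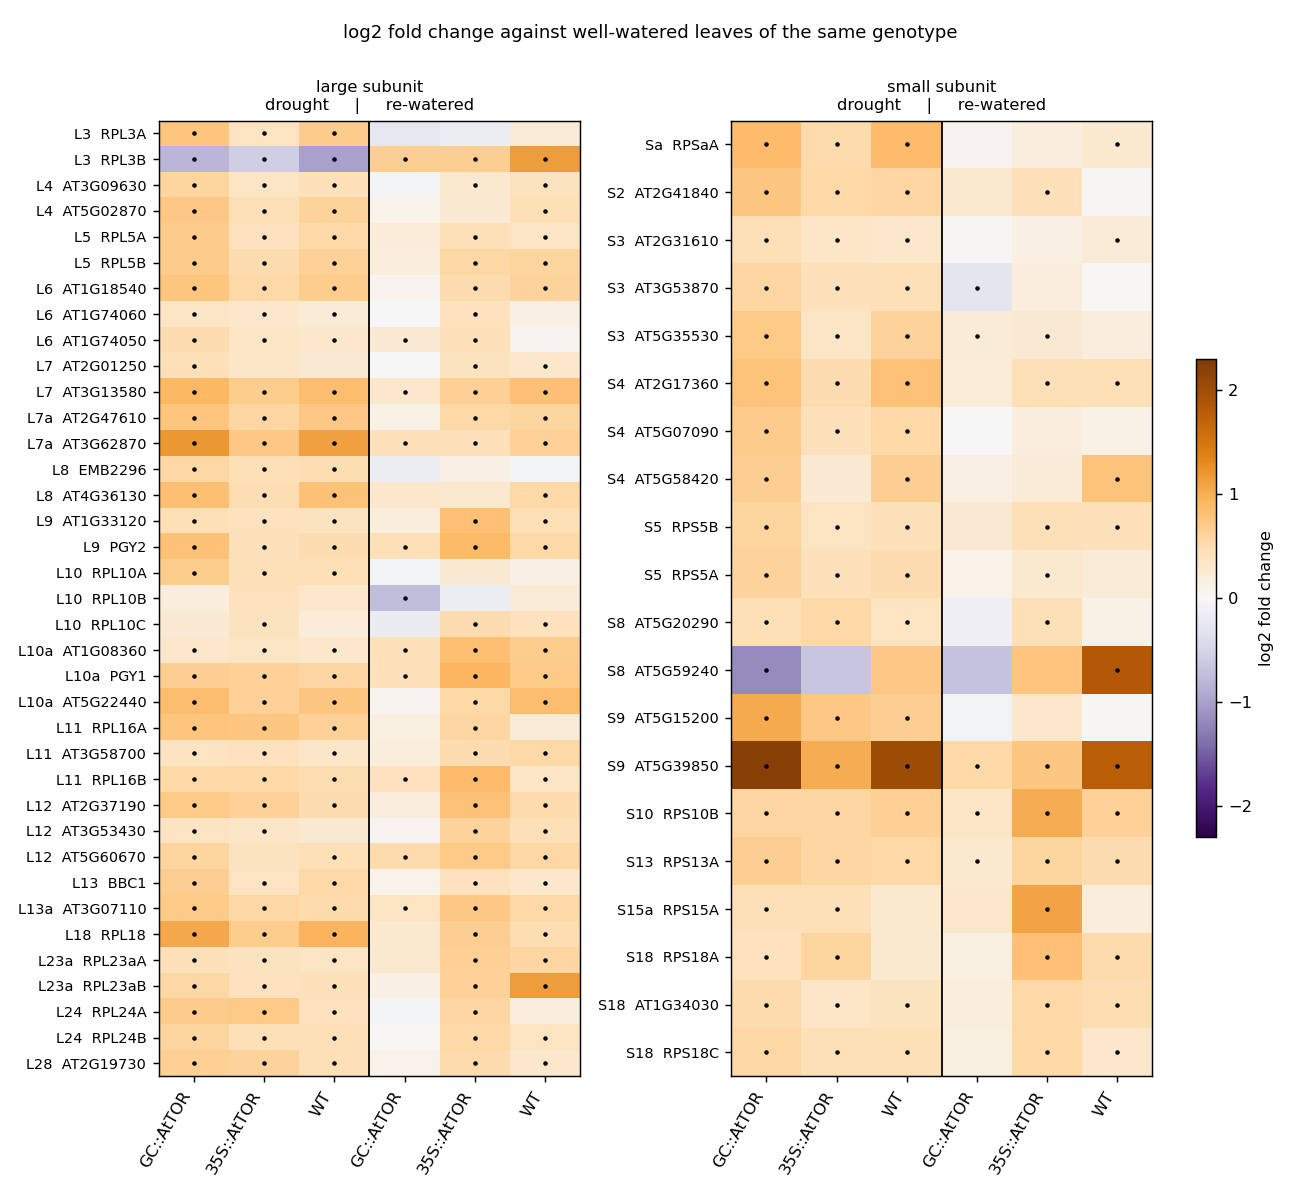
Log2 fold change (colour) of each of the 57 genes (rows, by subunit and family) in drought and re-watered leaves against well-watered leaves of the same genotype (columns), with a dot where the adjusted p was under 0.05. In the drought columns all rows are orange (above 0) but *RPL3B* and, in *GC::AtTOR* and *35S::AtTOR*, AT5G59240, and in the re-watered columns *GC::AtTOR* has 16 dots, *35S::AtTOR* 44 and WT 41.

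Re-watered leaves were then compared with well-watered leaves, 4 days after water was given again. In *35S::AtTOR* and WT most members were still higher than in well-watered leaves, and in *GC::AtTOR* fewer were. The summed level was 91457 ± 3501 normalized counts in re-watered *GC::AtTOR* leaves, against 85276 ± 18345 in well-watered ones, 111675 ± 6737 against 81588 ± 5502 in *35S::AtTOR* and 115286 ± 3070 against 89356 ± 7264 in WT. In *GC::AtTOR* 14 members were higher and 2 lower, with a median log2 fold change of 0.16, where 21.4% and 21.3% of all genes were called, so that the share of members called higher was near that of all genes. In *35S::AtTOR* 44 were higher and none lower (25.6% and 26.9% of all genes), with a median of 0.51, and in WT 41 were higher and none lower (31.7% and 31.2%), with a median of 0.43. Of the members, 12 were higher in all 3 genotypes (9.77% of all genes were), among them *RPL3B*, the L7a gene AT3G62870, *PGY1*, *PGY2*, *RPL16B*, *RPS10B* and *RPS13A*. A further 23 were called higher in both *35S::AtTOR* and WT and not in *GC::AtTOR* (6.3% of all genes). Without *GC::AtTOR* well-watered replicate 3 these counts were 27 and 8. In *GC::AtTOR* 13 members were higher both under drought and after re-watering (8.68% of all genes, and 32 members without that library), in *35S::AtTOR* 41 (5.58%) and in WT 35 (12.2%).

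Shares of all genes are not given for the fits without single samples, so the counts of these fits are not read as particular to the members. The *GC::AtTOR* count rests on the library that stood apart. Leaving out replicate 3 of well-watered *GC::AtTOR* gave 33 higher and 0 lower, without replicate 1 or 2 of the same group 4 and 2 or 5 and 3, and without re-watered replicate 2 it was 7 and 2. With equal sample totals it was 36 higher and 1 lower, with 54 and 0 in *35S::AtTOR* and 56 and 0 in WT, where the median of all genes shifted to 0.24, 0.22 and 0.35 in these genotypes. The 2 members that were lower in re-watered *GC::AtTOR* leaves were *RPL10B* and the S3 gene AT3G53870. *RPL10B*, a paralog of L10, had 51.5, 49.3 and 54.5 normalized counts in re-watered leaves, against 71.4, 81.4 and 108 in well-watered ones, with a log2 fold change of -0.72 (adjusted p = 0.00866). AT3G53870 had a log2 fold change of -0.29 (adjusted p = 0.0314) and its paralog AT5G35530 one of 0.22 (adjusted p = 0.0328). The calls of AT3G53870 and AT5G35530 were lost in 5 and 4 alternatives. Without replicate 3 neither *RPL10B* (-0.55, adjusted p = 0.0581) nor AT3G53870 (-0.16, adjusted p = 0.217) passed.

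*RPL3B* was reversed after re-watering and became higher than in well-watered leaves in every genotype. It had 285, 365 and 287 normalized counts in re-watered *GC::AtTOR* leaves, 401, 311 and 357 in *35S::AtTOR* leaves and 555, 620 and 510 in WT leaves, all above the drought values of their genotype given above. Against well-watered leaves it rose by 0.66 (SE 0.136, adjusted p = 0.000484), 0.66 (adjusted p = 0.000375) and 1.14 (adjusted p = 2.62e-07), and against drought leaves by 1.46, 1.22 and 2.13 (adjusted p = 8.53e-09, 2.04e-07 and 1.69e-11). *RPL3A* was lower in the same comparison, with log2 fold changes of -1.02, -0.53 and -0.48 (adjusted p = 5.59e-07, 0.00133 and 0.00248). The share of *RPL3B* in the L3 family was 9.13%, 8.76% and 10.9% after re-watering in *GC::AtTOR*, *35S::AtTOR* and WT.

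**Figure D3:**
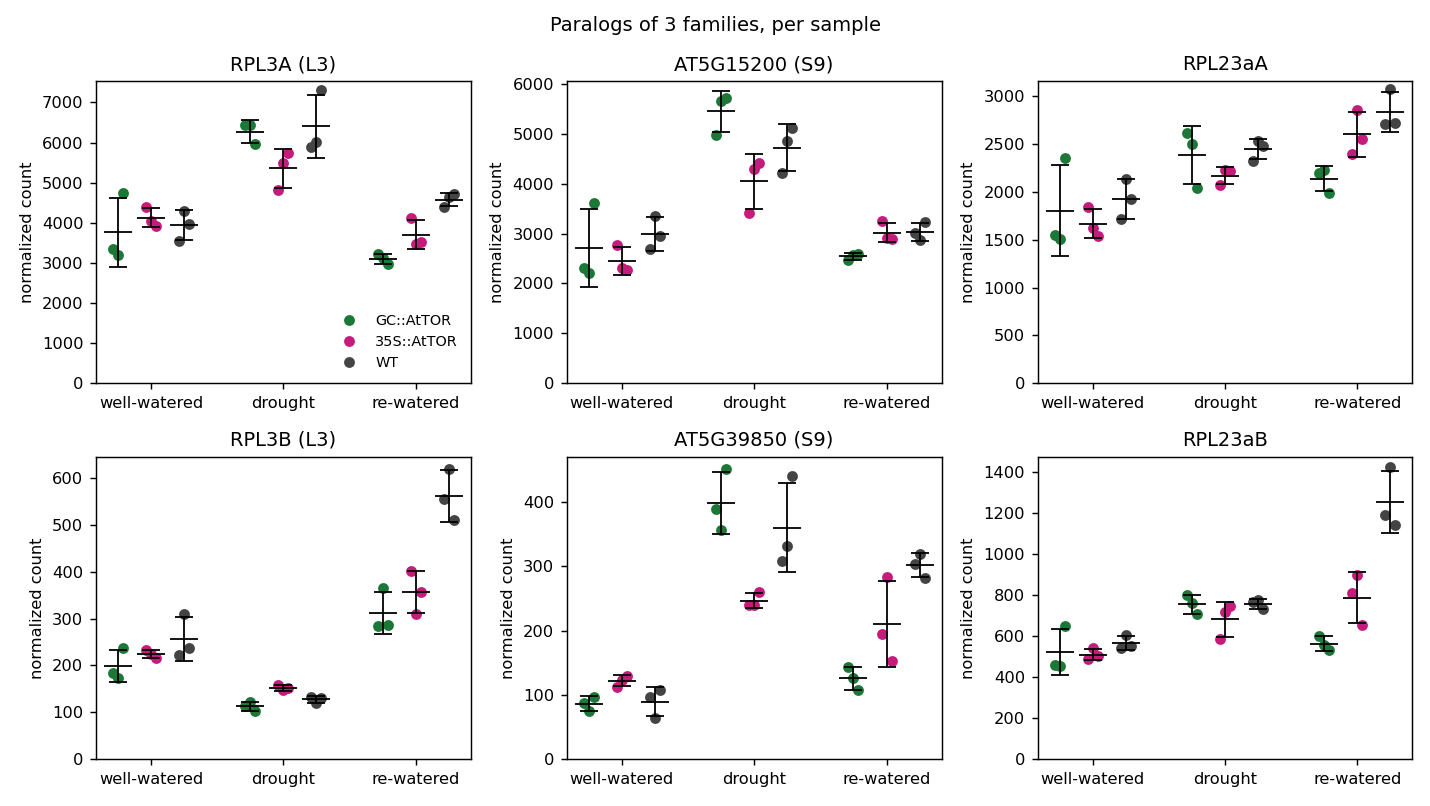
Normalized counts of the paralogs of L3, S9 and L23a in each sample (points, with the group mean and SD), by treatment and genotype; each panel has its own axis from 0. *RPL3B* is lowest under drought and highest after re-watering in each genotype, *RPL3A* is highest under drought, and *RPL23aB* is highest in re-watered WT leaves (1140 to 1424).

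Other members with large changes after re-watering are given by genotype. AT5G39850 was higher than in well-watered leaves by 0.54 in *GC::AtTOR* (adjusted p = 0.0299, lost in 4 alternatives), 0.74 in *35S::AtTOR* (adjusted p = 0.00296) and 1.78 in WT (adjusted p = 7.23e-08), with 143, 126 and 108 normalized counts in re-watered *GC::AtTOR* leaves, 194, 284 and 153 in *35S::AtTOR* leaves and 304, 319 and 282 in WT leaves. *RPS15A*, which encodes S15a of the small subunit, had 2000, 2233 and 1727 normalized counts in re-watered *35S::AtTOR* leaves, against 1048, 874 and 873 in well-watered ones, a rise of 1.09 (SE 0.143, adjusted p = 1.92e-06); its log2 fold changes in *GC::AtTOR* and WT, 0.32 and 0.19, did not pass (adjusted p = 0.0731 and 0.24). *RPS10B* (S10) rose by 0.34 in *GC::AtTOR* (adjusted p = 0.0339), 1.02 in *35S::AtTOR* (SE 0.127, adjusted p = 1.06e-06) and 0.63 in WT (adjusted p = 0.000206). *PGY1*, an L10a gene named for the outgrowths on the leaves of its mutants, rose by 0.43 in *GC::AtTOR* (adjusted p = 0.0126), 0.93 in *35S::AtTOR* (adjusted p = 5.76e-06) and 0.71 in WT (adjusted p = 7.85e-05). For *RPS10B* and *PGY1* the difference of the responses from WT did not pass in either line. AT5G59240, the S8 paralog with few reads, had the largest change in WT, with 11.1, 17.3 and 15.3 normalized counts in re-watered leaves, against 3.48, 5.84 and 1.69 in well-watered ones (1.82, SE 0.503, adjusted p = 0.00345). It reached the mean of 10 needed for a test only in re-watered WT, re-watered *35S::AtTOR* and well-watered *GC::AtTOR* leaves. Its calls that use these groups are therefore not independent of the filter.

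Several smaller changes that passed were lost under some alternatives. In *GC::AtTOR* the L12 gene AT5G60670 rose by 0.52 (SE 0.177, adjusted p = 0.0214, lost in 4 alternatives). In *35S::AtTOR* the smallest rises were those of AT5G35530 (0.26, adjusted p = 0.00938), the L4 gene AT3G09630 (0.28, adjusted p = 0.0429, lost in 6) and *RPS5A* (0.29, adjusted p = 0.0226, lost in 3). In WT they were those of the S3 gene AT2G31610 (0.22, adjusted p = 0.031, lost in 6), *RPSaA* (0.29, adjusted p = 0.0311, lost in 4) and *RPS18C* (0.29, adjusted p = 0.0173, lost in 2).

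The step between drought and re-watering is given by its counts in each genotype, and no test set this step in a line against that in WT. In *35S::AtTOR* and WT the shares of members called were below those of all genes. In re-watered against drought leaves, 1 member was higher and 46 lower in *GC::AtTOR* (31.8% and 29.3% of all genes), with a median of -0.49, 9 were higher and 5 lower in *35S::AtTOR* (26.2% and 26.3%), with a median of 0.02, and 3 were higher and 14 lower in WT (30.8% and 29.5%), with a median of -0.09. The split in *35S::AtTOR* was 17 higher and 1 lower with equal sample totals, 7 and 8 without drought replicate 1, 6 and 1 without drought replicate 2 and 6 and 2 without re-watered replicate 2. In *GC::AtTOR* the highest group mean was in drought leaves for 54 members, in re-watered leaves for 2 and in well-watered leaves for 1. In *35S::AtTOR* it was in drought leaves for 28 and re-watered leaves for 29, and in WT for 37 and 20. AT5G15200 had 2469, 2574 and 2588 normalized counts in re-watered *GC::AtTOR* leaves, below all 3 drought samples, with log2 fold changes against drought leaves of -1.10 in *GC::AtTOR* (adjusted p = 1.35e-06), -0.42 in *35S::AtTOR* (adjusted p = 0.0204, lost in 5 alternatives) and -0.63 in WT (adjusted p = 0.000724). AT5G39850 had -1.66 in *GC::AtTOR* (adjusted p = 2.26e-07), and -0.27 and -0.24 in *35S::AtTOR* and WT, which did not pass (adjusted p = 0.246 and 0.296). In WT the 3 members that were higher in re-watered than in drought leaves were *RPL3B*, *RPL23aB* (0.72, adjusted p = 5.17e-05) and the L10a gene AT1G08360 (0.38, adjusted p = 0.00351), and *RPSaA* and *EMB2296*, an L8 gene, were among those that were lower (-0.59, adjusted p = 0.000113, and -0.54, adjusted p = 0.00199). In *35S::AtTOR* AT5G59240 and *RPS15A* were higher than in drought leaves (1.42, adjusted p = 0.0217, lost in 4 alternatives, and 0.65, adjusted p = 0.000656) and *RPL10B* was lower (-0.57, adjusted p = 0.029, lost in 5). Re-watered *35S::AtTOR* leaves were among the few groups where AT5G59240 reached the mean needed for a test. The smallest falls in *GC::AtTOR* were those of the L9 gene AT1G33120 (-0.27, adjusted p = 0.0385, lost in 4) and AT1G74050 (-0.26, adjusted p = 0.0164, lost in 2).

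The lines were compared with WT in each treatment. *GC::AtTOR* and *35S::AtTOR* were set against the same WT samples, so their values are given side by side and no likeness between them is drawn. In well-watered leaves limma called none of the 57 members in *GC::AtTOR*, where 1.18% of all genes were higher and 0.245% lower. At an unadjusted p under 0.05 there were 2 members and 16.2% of all genes. Without well-watered replicate 3 of that line 8 members were lower. In *35S::AtTOR* it called none, where 5.26% and 5.5% of all genes were called, with 9 members and 26.6% of all genes at an unadjusted p under 0.05, and edgeR and DESeq2 on recovered reads called 1 and 3, all lower. The medians of the log2 differences were -0.08 in *GC::AtTOR* and -0.15 in *35S::AtTOR*. With equal sample totals the *35S::AtTOR* median was -0.03 and that of all genes 0.11.

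Under drought limma also called none in either line. In *GC::AtTOR* no member had an unadjusted p under 0.05 (4.99% of all genes did), the median was 0.03, and 3 of all 18785 genes passed (0.0106% higher and 0.00532% lower). In *35S::AtTOR* 12 members had an unadjusted p under 0.05, all lower, where 10% of all genes were higher and 7% lower at that level. Of the members, 56 of the 57 log2 differences were negative with a median of -0.18, and 2.31% of all genes were higher and 0.607% lower. DESeq2 called 1 of the 57. The summed level was 101818 to 120947 normalized counts in drought *35S::AtTOR* leaves, against 121908 to 141156 in WT leaves, so that the samples did not overlap.

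In re-watered leaves more members were called. In these leaves 34 of the 57 members were lower and none higher in *GC::AtTOR* when set against WT, where 20.9% of all genes were lower and 22.6% higher. The median difference was -0.33 on the log2 scale and 52 of the 57 were negative. Of the 37 large-subunit genes 24 were lower, and of the 20 small-subunit genes 10. In *35S::AtTOR* 6 were lower and 3 higher (19.6% and 19.8% of all genes), with a median of -0.05. The *GC::AtTOR* count was 22 without WT re-watered replicate 2 and 41 with equal sample totals, and the *35S::AtTOR* count was 1 higher and 3 lower without the same WT replicate. Leaf markers moved with this difference: the mesophyll sum was 296151 to 332018 normalized counts in re-watered *GC::AtTOR* leaves and 150847 to 227932 in *35S::AtTOR* leaves, against 103858 to 127105 in WT, and the sum of the 8 genes of dividing cells was 101 to 300 and 53.8 to 83.9, against 41.4 to 55.2. Their part in the result was not tested. The death of WT plants that the paper reports for a drought of this timing cannot be told apart from genotype here.

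**Figure D4:**
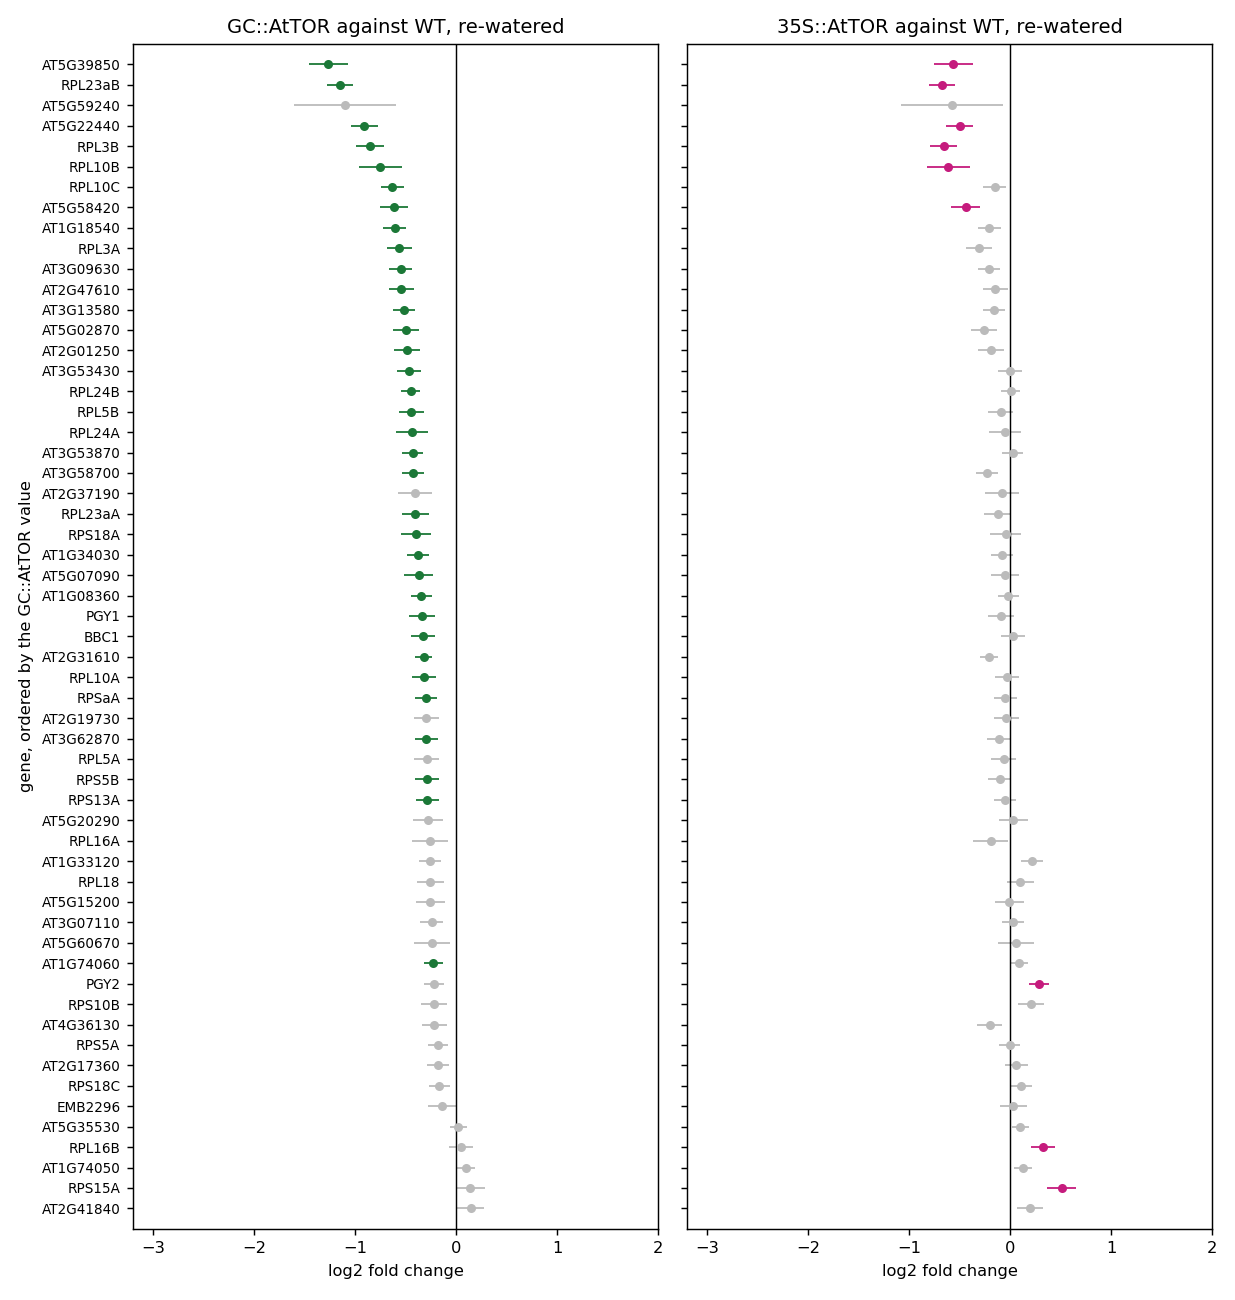
Log2 difference (point) and its standard error (line) of each of the 57 genes in re-watered leaves, *GC::AtTOR* against WT (left) and *35S::AtTOR* against WT (right), ordered by the *GC::AtTOR* value; coloured points have an adjusted p under 0.05 and grey points do not. On the left 52 of the 57 points lie below 0 and 34 are coloured, and on the right 6 coloured points lie below 0 and 3 above.

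*RPL23aB* and AT5G39850 were the 2 members that passed the test and were more than 2-fold lower in re-watered *GC::AtTOR* leaves, as were 6.35% of all genes. AT5G59240 had -1.10 and did not pass (adjusted p = 0.0824). L23a lies at the exit of the large subunit's nascent peptide tunnel. *RPL23aB* had 602, 554 and 533 normalized counts in re-watered *GC::AtTOR* leaves and 810, 896 and 651 in *35S::AtTOR* leaves, against 1191, 1424 and 1140 in WT leaves. No line sample reached the lowest WT sample, and the log2 difference was -1.15 (SE 0.129, adjusted p = 4.9e-07) in *GC::AtTOR* and -0.68 (adjusted p = 0.000297) in *35S::AtTOR*. In well-watered leaves the differences were -0.13 and -0.15 and did not pass, and the difference of the re-watered response from that of WT was -1.01 in *GC::AtTOR* (adjusted p = 0.00023) and -0.53 in *35S::AtTOR* (adjusted p = 0.0282, lost in 5 alternatives). Its paralog *RPL23aA* had 2203, 2229 and 1988 normalized counts in *GC::AtTOR* leaves and 2397, 2859 and 2554 in those of *35S::AtTOR*, against 2710, 3074 and 2721 in WT (log2 difference -0.40, adjusted p = 0.0178, and -0.12, adjusted p = 0.487). *RPL23aB* made up 20.8%, 23.1% and 30.6% of the L23a family in re-watered *GC::AtTOR*, *35S::AtTOR* and WT leaves.

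AT5G39850 had a log2 difference from WT of -1.27 in *GC::AtTOR* (SE 0.194, adjusted p = 2.16e-05) and -0.56 in *35S::AtTOR* (adjusted p = 0.0248); the *GC::AtTOR* samples lay below all WT samples, and the highest *35S::AtTOR* sample (284) was just above the lowest WT sample (282). AT5G22440, an L10a gene, had 532, 537 and 557 normalized counts in re-watered *GC::AtTOR* leaves and 740, 776 and 651 in *35S::AtTOR* leaves, against 1006, 1159 and 907 in WT leaves. The groups did not overlap, and the log2 differences were -0.91 (SE 0.136, adjusted p = 1.57e-05) and -0.50 (adjusted p = 0.00581).

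*RPL3B* differed from WT by -0.85 in *GC::AtTOR* (adjusted p = 3.58e-05) and -0.66 in *35S::AtTOR* (adjusted p = 0.00064), and the S4 gene AT5G58420 by -0.61 (adjusted p = 0.00124) and -0.44 (adjusted p = 0.0147). *RPL10B* had the values given above in *GC::AtTOR* and 70.3, 44.5 and 58.8 normalized counts in *35S::AtTOR* leaves, against 72.5, 103 and 90.1 in WT leaves, with log2 differences of -0.75 (adjusted p = 0.00665) and -0.61 (adjusted p = 0.0248, lost in 5 alternatives). *RPL10C*, *RPL3A* and the L6 gene AT1G18540 differed in *GC::AtTOR* (-0.63, -0.56 and -0.61, with adjusted p = 0.00015, 0.00114 and 0.000222) and did not pass in *35S::AtTOR* (-0.15, -0.31 and -0.21, with adjusted p = 0.306, 0.057 and 0.162). AT1G18540 made up 38.7% of the L6 family in *GC::AtTOR* and 43.1% in *35S::AtTOR*, against 48.5% in WT. The smallest differences called in *GC::AtTOR* were those of *RPS5B* (-0.29, adjusted p = 0.0494), *RPS13A* (-0.28, adjusted p = 0.0453) and AT1G74060 (-0.22, adjusted p = 0.0493), which were lost in 9, 8 and 9 alternatives.

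The reverse was seen for 3 members in *35S::AtTOR*. *RPS15A* had the values given above, against 1430, 1313 and 1424 normalized counts in re-watered WT leaves, and was higher by 0.51 (adjusted p = 0.00723). *PGY2* (L9) had 2492, 2806 and 2216 normalized counts, against 2103, 2013 and 2010 in WT (0.29, adjusted p = 0.0234), and *RPL16B* (L11) had 1740, 1645 and 1455, against 1326, 1174 and 1367 (0.32, adjusted p = 0.0406). The *35S::AtTOR* samples lay above all WT samples for each of the 3, and the calls of *PGY2* and *RPL16B* were each lost in 5 alternatives. The split of reads between *PGY2* and its paralog AT1G33120 is uncertain. AT1G33120 had 1823, 1838 and 1472 normalized counts in re-watered *35S::AtTOR* leaves, against 1539, 1456 and 1393 in WT leaves, and was not called.

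Whether a line responded otherwise than WT was tested in the same model. For drought it passed for none of the members in *GC::AtTOR* by limma, with 2 at an unadjusted p under 0.05, as 12.5% of all genes (0.0373% of all genes passed as higher, 0.208% as lower), and for 2, both higher, without *GC::AtTOR* well-watered replicate 3, and for 1 in *35S::AtTOR*, AT5G39850 (3.88% and 2.79%). For re-watering it was negative and passed for 13 members in *GC::AtTOR* and positive for none (16.2% and 18.1% of all genes), with a median of -0.25, and in *35S::AtTOR* it was positive for 4 and negative for 3 (17.9% and 17.9%), with a median of 0.09. With equal sample totals it was positive for 1 and negative for 5. The shares of members called were thus near or below those of all genes in *35S::AtTOR*. For lower calls in *GC::AtTOR* the share was somewhat above that of all genes when all samples were used. The count of 13 was 8 without *GC::AtTOR* well-watered replicate 3 (median -0.09), WT well-watered replicate 1 or WT re-watered replicate 2. It also includes AT5G59240, whose call is not independent of the filter. No result about the members as a set is therefore drawn from the 13.

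Other ribosome genes were described beside the 57. The 119 other cytosolic ribosomal protein genes, 115 of which were tested, gave counts of the same direction: 88 were higher and 2 lower under drought in *GC::AtTOR* (median 0.53), 86 and 0 in *35S::AtTOR* (0.48) and 67 and 2 in WT (0.38), and after re-watering 59 were lower and none higher in *GC::AtTOR* than in WT (-0.34). They include *RPS6A* and *RPS6B*, which rose under drought by 0.54 and 0.58 in *GC::AtTOR* (adjusted p = 0.00421 and 3.88e-05) and by 0.47 and 0.62 in WT (adjusted p = 0.0116 and 2.46e-05). In *35S::AtTOR* they had 0.27 and 0.41 (adjusted p = 0.185 and 0.00438). In re-watered leaves *RPS6A* was lower than in WT (-0.80 in *GC::AtTOR*, adjusted p = 0.000207, and -0.42 in *35S::AtTOR*, adjusted p = 0.0287). Of 14 nucleolar ribosome biogenesis genes, 12, 5 and 11 were higher and none lower under drought in *GC::AtTOR*, *35S::AtTOR* and WT (medians 0.60, 0.33 and 0.64), among them *NOP58A*, a core protein of the box C/D particles that guide ribosomal RNA methylation (1.46, adjusted p = 9.35e-09, in *GC::AtTOR*). In re-watered leaves all 14 were lower in *GC::AtTOR* than in WT (median -0.96) and 12 in *35S::AtTOR* (-0.58), with *FIB2*, a fibrillarin that methylates ribosomal RNA, at -1.71 (adjusted p = 5.89e-07) and -1.11 (adjusted p = 0.000131). The 22 cytosolic translation factors had 12, 6 and 11 higher under drought and none lower. Of all genes 27.2%, 11.8% and 23.9% were higher under drought in *GC::AtTOR*, *35S::AtTOR* and WT. In re-watered leaves 20.9% and 19.6% of all genes were lower than in WT in *GC::AtTOR* and *35S::AtTOR*. The 119 genes summed to 99390 to 143965 normalized counts in well-watered *GC::AtTOR* leaves (median 101696). Their counts against these leaves rest on that spread and are not given without single samples.

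The plastid ribosomal protein genes differed between genotypes in their counts. These nuclear genes encode the proteins of the chloroplast ribosome, and 36 of 37 were tested. Under drought 1 was higher and 6 lower in *GC::AtTOR* (median -0.11), 1 and 1 in *35S::AtTOR* (0.21), and 0 and 19 in WT (-0.43). In re-watered leaves 0 were lower than in well-watered leaves in *GC::AtTOR* (median -0.04), 4 in *35S::AtTOR* (-0.18) and all 36 in WT (-0.99). Of all genes 31.4%, 14.7% and 27.9% were lower under drought and 21.3%, 26.9% and 31.2% after re-watering, in the same order of genotypes. All 36 were higher in re-watered *GC::AtTOR* leaves than in WT (median 0.67) and 20 in *35S::AtTOR* (0.44), and none lower. The mesophyll markers were higher in the same comparison. In *GC::AtTOR* well-watered replicate 3, which stood apart for the 57 genes, the plastid sum was also the highest of its group (138208 normalized counts, against 86653 and 87627). The sums were 78065 to 112592 in drought and 89393 to 104496 in re-watered *GC::AtTOR* leaves. All lay below that library, and the re-watered ones lay above the other samples of its group. The plastid counts and medians against well-watered *GC::AtTOR* leaves thus rest partly on it and are not given without it.

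**Figure D5:**
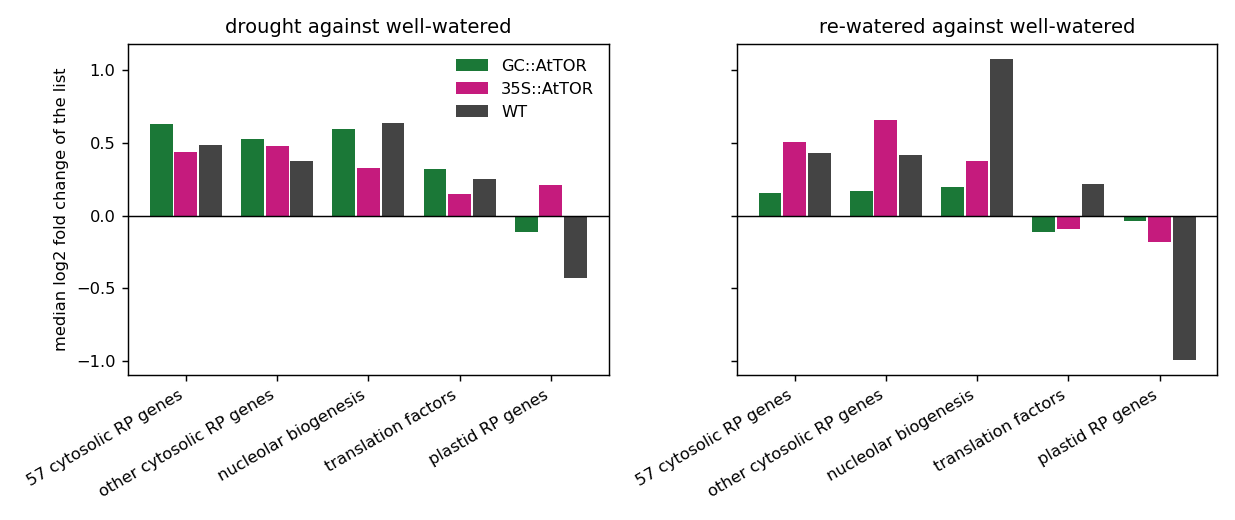
Median log2 fold change (bars from 0) of the 57 genes and of 4 other lists in drought leaves (left) and re-watered leaves (right) against well-watered leaves of the same genotype. The 57 genes are above 0 in all 6 cases (0.16 to 0.63), and the plastid ribosomal protein genes are lowest in re-watered WT leaves (-0.99).

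Other leaf markers were measured in the same samples. Of the 4 senescing leaf markers 3 were tested, and 2 were higher in re-watered than in well-watered leaves in *35S::AtTOR* and WT and none in *GC::AtTOR*. Of all genes 25.6%, 31.7% and 21.4% were higher in *35S::AtTOR*, WT and *GC::AtTOR*. The sum of 6 guard cell markers was 1346 to 2065 normalized counts in drought *GC::AtTOR* leaves, against 924 to 1159 in well-watered ones, 967 to 1118 against 1082 to 1207 in *35S::AtTOR*, and 1198 to 1621 against 791 to 957 in WT. These markers did not move together. The mean of *GORK* rose under drought from 159 to 1090 in *GC::AtTOR*, 271 to 494 in *35S::AtTOR* and 147 to 812 in WT. That of *OST1* also rose in each genotype, and those of *KAT1*, *FAMA*, *MYB60* and *SLAC1* fell in each. The sum of 3 phloem markers was 3303 to 4243 against 2589 to 2971 in *GC::AtTOR*, 3404 to 3751 against 3754 to 3988 in *35S::AtTOR* and 3496 to 3744 against 2763 to 3126 in WT. This sum is mostly *SUC2*, whose mean went under drought from 2365 to 3447 in *GC::AtTOR*, 3377 to 3257 in *35S::AtTOR* and 2510 to 3293 in WT. The means of *APL* and *SEOR1* fell in each genotype. The mesophyll sum was the largest of the marker lists in all 9 groups. The lists differ in the number and the level of their genes, so this ranking cannot check the labelled tissue. The part of these cell types in the values of the ribosomal protein genes was not tested.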

How the data were processed

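Leaf RNA of 27 samples was read by the authors in paired-end TruSeq libraries (NovaSeq, 150 cycles). Trimmomatic was used by the authors for trimming, STAR for alignment (TAIR10), and Salmon with tximport for gene levels; CASAVA is also named in the sample records, and versions are not given in the sources used here. The deposited values are signal: gene-level normalized counts, divided by a DESeq2 size factor per sample and not by length. Whole reads were recovered within 0.1 reads from the step of each sample (100% of values whole); the step of 26 samples was accepted, and *35S::AtTOR* well-watered replicate 1 was left out of edgeR and DESeq2.

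All 34218 genes were read. The 18785 genes that reached a group mean of 10 anywhere were tested on log2(normalized count + 1) by limma (version 3.58.1, R 4.3.3), which fitted all 9 groups together with 18 residual degrees of freedom and a trend, over 19 comparisons; fold changes are on that scale and understate those of low genes. p-values were adjusted by Benjamini-Hochberg over all genes tested, with a threshold of 0.05. The test was tried on simulated reads. Alternatives were pseudocounts of 0.5 and 5, a mean of at least 50, no filter, equal sample totals, the compared groups alone, edgeR 4.0.16, DESeq2 1.42.0, a block and each sample left out. Lost calls were counted only for the 3 highest and 3 lowest calls of each comparison, so other calls given without such a count were not scored. The members, lists and tests were chosen with earlier results of these data known. All members can be named; values are given for the 3 highest and 3 lowest calls of a comparison, the 3 highest and lowest levels per coding length, and families with opposite calls, and other members that the text names were chosen after their values were seen. Promoters and coding sequences are those of RefSeq TAIR10.1, matched by locus. Protein sequences were not used here. Library and replicate numbers differ for 12 of the samples.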

Additional observations from a re-analysis of the deposited data

Results flagged for a closer look

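The results below are those where a line's response to a treatment differed from that of WT by the test of the difference itself (limma, adjusted over all genes tested); each is the line's log2 fold change minus that of WT. Both lines were set against the same WT samples. No group was large enough for a test of single outlying samples.

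For drought against well-watered leaves the S9 gene AT5G39850 differed in *35S::AtTOR*, by -1 (SE 0.274, adjusted p = 0.0314), with a smaller rise than in WT.

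For re-watered against well-watered leaves 13 members differed in *GC::AtTOR*, all with negative values. The S8 gene AT5G59240 had -2.51 (SE 0.712, adjusted p = 0.00943) at fewer than 20 normalized counts in every sample. Re-watered WT and well-watered *GC::AtTOR* leaves were among the few groups where AT5G59240 reached the mean needed for a test, so this call is not independent of the filter. AT5G39850 had -1.24 (adjusted p = 0.00148), *RPL23aB* -1.01 (adjusted p = 0.00023), *RPL10B* -0.95 (adjusted p = 0.0176) and the L10a gene AT5G22440 -0.80 (adjusted p = 0.00282). The S4 gene AT5G58420 had -0.65 (adjusted p = 0.0138), *RPL10C* -0.58 (adjusted p = 0.00851), the L6 gene AT1G18540 -0.55 (adjusted p = 0.0118) and the L7 gene AT3G13580 -0.49 (adjusted p = 0.0156). *RPL3A* had -0.47 (adjusted p = 0.0444), the L7a gene AT2G47610 -0.46 (adjusted p = 0.0423), the L4 gene AT3G09630 -0.42 (adjusted p = 0.0433) and *RPL24B* -0.37 (adjusted p = 0.0348). The calls of AT2G47610, AT3G09630 and *RPL24B* were lost in 9, 11 and 7 alternatives. Leaving out replicate 3 of well-watered *GC::AtTOR* ended these 3 calls and those of *RPL10B* (-0.78, adjusted p = 0.0509) and *RPL3A* (-0.29, adjusted p = 0.137). Losses over all alternatives were counted only for the 3 highest and 3 lowest calls. They were not counted for *RPL10B*, AT5G22440, AT5G58420, *RPL10C*, AT1G18540, AT3G13580 and *RPL3A*.

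In *35S::AtTOR* 7 members differed in the same contrast. Negative values were found for AT5G39850 (-1.03, adjusted p = 0.0056), AT5G58420 (-0.56, adjusted p = 0.0317) and *RPL23aB* (-0.53, adjusted p = 0.0282). Positive values were found for *RPS15A* (0.89, adjusted p = 0.00167), *RPL16B* (0.53, adjusted p = 0.0201), *PGY2* (0.37, adjusted p = 0.0438) and the L6 gene AT1G74050 (0.35, adjusted p = 0.0339). The calls of AT5G58420, *RPL23aB*, *RPL16B* and *PGY2* were lost in 9, 5, 4 and 12 alternatives. Losses were not counted for AT1G74050. The split of reads between *PGY2* and its paralog AT1G33120 is uncertain. Without *35S::AtTOR* well-watered replicate 2 the test passed as positive for 1 member and as negative for 2.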

How the results depend on the processing

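Medians near 0 changed sign under some alternatives, as listed below, and 79 named calls included 35 that were lost under at least 1 setting and 0 that were reversed. Equal sample totals moved the sizes: the members' medians became 0.902 and 0.76 for drought in *GC::AtTOR* and WT, 0.382, 0.727 and 0.758 for re-watered against well-watered leaves in *GC::AtTOR*, *35S::AtTOR* and WT, 0.15 for re-watered against drought leaves in *35S::AtTOR*, -0.0318 for *35S::AtTOR* against WT in well-watered leaves, -0.407 for *GC::AtTOR* against WT in re-watered leaves and -0.209 for the drought response of *35S::AtTOR* against that of WT. The median re-watered response of *35S::AtTOR* against that of WT was reversed (-0.0158). Counts of members became 37 for re-watered *GC::AtTOR*, 1 for *35S::AtTOR* against WT under drought and 4 for its drought response against that of WT, and sums 143163 in drought *GC::AtTOR*, 123038 in re-watered *35S::AtTOR*, and 77873 and 125992 in well-watered and re-watered WT leaves. All-gene calls for re-watered leaves became 6672 higher and 2515 lower for *GC::AtTOR*, 7052 and 3235 for *35S::AtTOR* and 8925 and 3903 for WT. With the compared groups alone 6 members were called for re-watered *GC::AtTOR*, 9 for re-watered against drought *35S::AtTOR* and 2 for well-watered *35S::AtTOR* against WT, where a mean of at least 50 and edgeR gave 1 and DESeq2 3; DESeq2 gave 1 under drought. AAACCCTA was in 12 promoters when only the bases before the start were searched. Correlations of the deviations of same-numbered replicates ran from -0.445 to 0.642 (median 0.0213), and 2 of 36 group pairs had all values above 0.1. Between drought WT and *GC::AtTOR* leaves they were 0.642, -0.32 and 0.513 for replicates 1, 2 and 3. No pairing was used, and a replicate block moved no count by over 1.5 times (54, 52 and 50 members called under drought in *GC::AtTOR*, *35S::AtTOR* and WT). Leaving out 1 sample gave these ranges of the count of members called, with the range of the median in parentheses. Under drought it was 49 to 55 (0.527 to 0.805) in *GC::AtTOR*, 33 to 52 (0.395 to 0.525) in *35S::AtTOR* and 42 to 51 (0.428 to 0.535) in WT. For re-watered against well-watered leaves it was 6 to 33 (0.0598 to 0.296), 40 to 45 (0.469 to 0.563) and 32 to 41 (0.377 to 0.492), and against drought leaves 44 to 47 (-0.534 to -0.453), 7 to 15 (-0.0408 to 0.0654) and 12 to 19 (-0.147 to -0.0419), in the same genotypes. Against WT it was 0 to 8 (-0.236 to 0.00677) in *GC::AtTOR* and 0 to 1 (-0.206 to -0.086) in *35S::AtTOR* in well-watered leaves, 0 to 0 (-0.0118 to 0.0917) and 0 to 0 (-0.233 to -0.11) under drought, and 22 to 30 (-0.356 to -0.311) and 4 to 8 (-0.0838 to -0.00634) in re-watered leaves. For the difference of responses it was 0 to 2 (0.0319 to 0.272) and 0 to 1 (-0.0774 to 0.0491) under drought, and 8 to 16 (-0.335 to -0.0889) and 3 to 8 (0.0331 to 0.154) for re-watering. For the drought response of *35S::AtTOR* against that of WT the median was -0.0216, and 0.011 with a library number block, 0.0256 by edgeR and 0.0503 by DESeq2, and for re-watered against drought *35S::AtTOR* leaves it was 0.0164, and -0.00011 with a mean of at least 50. The cause of these shifts was not tested. Depth limits AT5G59240 and, in *35S::AtTOR* re-watered replicate 1, members under about 100 normalized counts.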
